A study of Rattus norvegicus with 32 samples.

Results

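The renin-angiotensin system genes described here are 9 genes that the array names Agt, Ace, Agtr1a, Agtr1b, Agtr2, Agtrap, Atp6ap2, Lnpep and Mas1, out of 26583 gene names on it. They were chosen by name, as the precursor, the converting enzyme, the receptors and the receptor partners of the hormone that the study added to the cells. Probes were taken when the gene name in the scanner output equalled one of these names, which gave 10 probes. Ace had 2 probes, and the probe of Agtr1a was printed as 10 spots.

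The cells were C6, a glioma line from rat that grows as an adherent culture and is used as a glial tumour model. At each of 2 time intervals, 3 h and 6 h, there were 4 groups of 4 replicates: untreated cells (Control), cells given 100 nM angiotensin II (Ang II), and cells given the same Ang II dose 30 min after 10 µM Losartan (Ang II+Los) or 10 µM PD123319 (Ang II+PD123319). Losartan blocks the AT1 receptor and PD123319 the AT2 receptor. No group received an antagonist without Ang II, and all cells were of 1 line. Each of the 32 samples was hybridized with a single dye to an Agilent rat array. Nothing in the sources says that replicates were separate cultures, so the p-values measure the spread between these samples, which may be technical.

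Angiotensinogen is cut to angiotensin I, and angiotensin converting enzyme trims that peptide to Ang II. Ang II acts through 2 classes of receptor that span the membrane and couple to G proteins: AT1, which the rat carries as a pair of genes, and AT2. Aminopeptidases shorten Ang II further, and other peptidases make a shorter peptide that binds the Mas receptor. In the brain, astrocytes are the main known source of angiotensinogen.

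The scanner software called a spot well above background when its background-subtracted intensity exceeded a set multiple of the SD of the background. Per the file headers this multiple was 2.6 at 3 h and 13 at 6 h, and the setting that picks the error behind the weaker call, significantly above background, also differed. Counts by either call are therefore not compared between the times, and the number of arrays on which a probe lay above every negative-control spot is given as a measure common to both. The share of spots that met each limit ran from 55.9% to 64.7% at 3 h and from 64.2% to 79.8% at 6 h. Each slide held 1 array of every group in a fixed order of position, so treatment and position cannot be told apart. Replicates 1 and 2 of the 3 h interval were scanned together (scan 1) and replicates 3 and 4 together (scan 2). At 6 h, replicates 1 to 3 were scanned together and replicate 4 apart. Of the 10 glial and C6 marker genes looked up, 6 were well above background (passed) on all 32 arrays, among them Vim, Nes, Cnp, Sox2 and Glul. The probes of Slc1a3 and Olig2 were well above background on 0 arrays and that of Gfap on 2. Of the S100b probes, 1 passed on 0 arrays and the other on all 32, so a single probe at background does not show that a transcript was absent. Of the markers of other cell types, 1 of 3 neuronal, 0 of 4 endothelial, 3 of 4 macrophage and 2 of 4 fibroblast genes passed on all 32. Those that passed on 0 arrays were Syt1, Pecam1, Tek and Ptprc, while Gad1 passed on 30 by its better probe, Cdh5 on 28 and Kdr on 17. The part of other cells in the results was not tested.

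The 4 receptor genes were well above background on no array, and some arrays at 6 h passed the weaker call for Agtr1a, Agtr1b and Mas1. Agtr1a and Agtr1b encode AT1a and AT1b, the targets of Losartan. Agtr2 encodes AT2, the target of PD123319, and Mas1 encodes the Mas receptor. Their probes are shown to make clear what was asked of each array. All are written 5′ to 3′. The Agtr2 probe is given whole, since its 60 bases read in 1 open frame to a stop codon (capitals), and the first 30 bases are given of the others.
Agtr1a: acccaagtccacacatcaaagtcacactgc
Agtr1b: ctgtcccagatagttgtgtcttcctagttg
Agtr2: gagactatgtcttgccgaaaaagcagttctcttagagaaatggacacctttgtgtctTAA
Mas1: gtgttgctacttagtatcttctggaaatgc
The full probes of Agtr1a and Agtr1b shared no run longer than 6 bases, so the 2 AT1 genes were asked with separate sequences. On rn4, the build in the file headers, the Agtr1a probe lies at chr17:40629499-40629558, the Agtr1b probe at chr2:105503483-105503542 and the Agtr2 probe at chrUn:50647969-50648028, all on the minus strand, and the Mas1 probe at chr1:42185391-42185450 on the plus strand. Which exon or untranslated part a probe falls in was not looked up.

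For each of these 4 probes, 0 of 32 arrays gave a signal well above background. The Agtr2 probe had background-subtracted intensities between -2.63 and -0.20 at 3 h and between -2.80 and 0.51 at 6 h. The negative-control spots, 142 to 152 per array, had mean intensities between -3.0 and -0.99, with SDs from 0.94 to 2.01. The Agtr2 probe was thus within the spread of the negative controls, and on the median array 50.7% of the negative-control spots lay below it. It was significantly above background, the scanner's weaker criterion, on 0 arrays, and above every negative-control spot on 0.

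The Agtr1a probe gave intensities between -1.84 and 0.95 at 3 h and between -2.19 and 5.39 at 6 h, with 65.9% of the negative-control spots below it on the median array. Of its 320 spots, which include 22 flagged as outliers, 3 were well above background and 37 passed the weaker criterion, 30 of these at 6 h. By the call of most of its spots without an outlier flag, 1 array passed the weaker criterion, that of Ang II+PD123319 replicate 1 at 6 h. The same count, 0 arrays at 3 h and 1 at 6 h, lay above every negative-control spot.

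The Agtr1b probe reached intensities of -2.65 to 3.21 at 3 h and -1.59 to 4.26 at 6 h, and 91.2% of the negative-control spots lay below it on the median array. It passed the weaker criterion on 0 of 16 arrays at 3 h and on 5 of 16 at 6 h, which were Control replicate 1, Ang II replicates 1 and 2, and Ang II+Los replicates 1 and 4. It lay above every negative-control spot on 2 arrays at 3 h and 5 at 6 h. The Mas1 probe lay between -2.53 and 1.57 at 3 h and between -3.96 and 9.44 at 6 h, and passed the weaker criterion on 0 arrays at 3 h and 6 at 6 h. These 6 arrays were spread over Control, Ang II, Ang II+Los and Ang II+PD123319, with 1, 2, 1 and 2 arrays. Above every negative-control spot it lay on 0 arrays at 3 h and 6 at 6 h. Since no group had an array well above background, no fold change is given for the receptors. The study also measured the AT1 and AT2 receptors by qPCR. It assayed Agtrap, described below, by qPCR as well, as a check on the array changes. The qPCR values were not examined here.

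**Figure D1:**
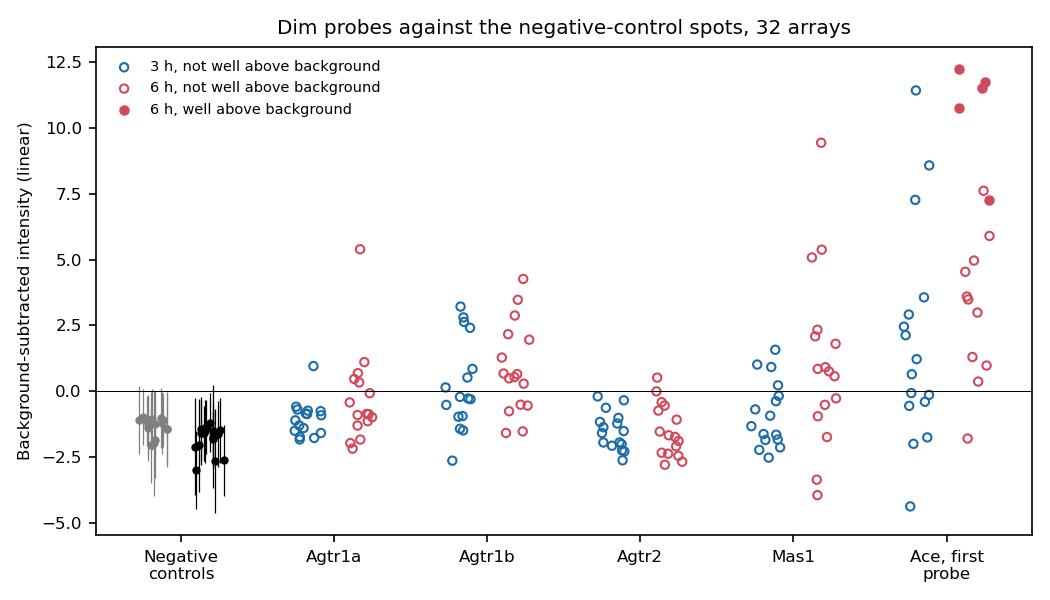
Background-subtracted intensity (linear scale) on each of the 32 arrays for the probes of the 4 receptor genes and the first Ace probe, 3 h in blue and 6 h in red, beside the mean and SD of the negative-control spots of each array (3 h grey, 6 h black). Filled points are well above background by the limit of each time: the receptors have 0 of them and the Ace probe has 5, all at 6 h.

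Angiotensinogen, the secreted precursor from which all angiotensin peptides are cut, is encoded by Agt (probe at chr19:54738614-54738673, minus strand). Its signal was dim but above every negative-control spot on all 32 arrays, and passed the weaker criterion on all 32. By the unequal limits it was well above background on 18, namely 7 of 16 at 3 h and 11 of 16 at 6 h. By group at 3 h, these were 2 of 4 Control arrays, 2 of Ang II, 1 of Ang II+Los and 2 of Ang II+PD123319, and at 6 h 2, 3, 3 and 3 in the same order. Agt therefore did not reach the filter for a main comparison, which asked for 4 of 4 arrays in at least 1 group.

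The Agt level followed the slide. At 3 h, the normalised log2 levels of replicates 1 to 4 were 4.90, 3.79, 4.57 and 2.73 in Control, 4.81, 2.09, 3.94 and 3.07 in Ang II, 4.69, 3.90, 4.11 and 3.06 in Ang II+Los, and 4.71, 3.48, 4.03 and 2.59 in Ang II+PD123319. Replicate 1 was the highest in every group, and the groups overlapped. At 6 h the levels were 5.03, 3.71, 2.78 and 3.52 in Control, 4.58, 3.37, 3.19 and 3.4 in Ang II, 4.27, 3.64, 3.48 and 3.62 in Ang II+Los, and 4.32, 3.90, 3.28 and 3.74 in Ang II+PD123319. Slide means spanned 1.92 log2 units at 3 h and 1.37 at 6 h, and group means 0.52 and 0.17. The single lowest 3 h value, 2.09 in Ang II replicate 2, differed from the Control array of its slide by -1.70.

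When probes were kept by the weaker criterion, a choice made after seeing the data, Agt entered the fit and differed by an unadjusted p under 0.05 in 0 of the 12 comparisons. In Ang II x Control at 3 h its limma difference was -0.52 (SE 0.29, 95% interval -1.16 to 0.12, adjusted p = 0.487), and at 6 h -0.12 (SE 0.19, interval -0.55 to 0.30, adjusted p = 0.780). The differences with Losartan or PD123319 lay between -0.29 and 0.46 at 3 h and between -0.06 and 0.17 at 6 h. The 3 h interval thus reaches past a fall of 1 log2 unit.

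Angiotensin converting enzyme, encoded by Ace, is a peptidase anchored in the membrane that makes Ang II from angiotensin I. Its 2 probes lie close together on chromosome 10, plus strand, at chr10:95380760-95380819 and chr10:95381347-95381406, and they gave different answers on detection. The first 30 bases of each are given.
Ace, first probe: tatgaattacttcaagccactgactgaatg
Ace, second probe: tttgagtggaacatacccaagctgggcctt
The first probe passed on 0 of 16 arrays at 3 h and 5 of 16 at 6 h (replicate 1 of all 4 groups and Control replicate 3), and lay above every negative-control spot on 5 and 12. The second passed on all 32, and the values of Ace below are from this probe. They share no run of more than 5 bases, and which transcript forms they detect was not tested.

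At 3 h, Ace was lower in Ang II than in Control. The log2 levels of replicates 1 to 4 were 6.16, 5.48, 5.38 and 5.35 in Control and 5.86, 4.81, 5.12 and 4.93 in Ang II. The groups overlapped, but on each of the 4 slides the Ang II array was the lower one (by 0.29, 0.67, 0.26 and 0.42), as it was for 12.7% of all genes. The limma difference was -0.41 (SE 0.15, interval -0.73 to -0.09, adjusted p = 0.342), which passed the study's unadjusted threshold of p under 0.05 and not the adjusted one. In Ang II+Los the levels were 5.63, 5.76, 5.32 and 5.32, and in Ang II+PD123319 5.88, 5.25, 5.28 and 5.18. Ace was higher in Ang II+Los than in Ang II by 0.33 (SE 0.15, interval 0.01 to 0.65, limma adjusted p = 0.427), again past the unadjusted threshold alone, in 3 of 4 pairs, and the slide of replicate 2 gave 0.95. Without replicate 2 this difference was 0.12, and without replicate 2, 3 or 4 it no longer passed. Ang II x Control without replicate 4 was still -0.41 but no longer passed, and within scans 1 and 2 it was -0.48 and -0.34. With another background correction (normexp), Ace in Ang II x Control was -0.16, and averaged with its dim first probe it was -0.09, and neither passed. Against Control, the Ang II+Los group differed by -0.08 (interval -0.40 to 0.24) and Ang II+PD123319 by -0.19 (interval -0.51 to 0.13), and the antagonist groups differed from each other by 0.11 (interval -0.21 to 0.43).

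At 6 h, Ace was set apart by slide more than by treatment. The levels of replicates 1 to 4 were 7.32, 6.91, 6.33 and 5.52 in Control and 7.17, 6.65, 6.14 and 5.78 in Ang II, so replicate 4 went up where the rest went down. The Ang II x Control difference was -0.08 (SE 0.10, interval -0.30 to 0.14, limma adjusted p = 0.673). Without replicate 4, which is also the only replicate of its scan, it was -0.20 and passed the unadjusted threshold. Slides accounted for 96.0% of the variation of Ace over the 16 arrays at 6 h and groups for 0.449%, while at 3 h these shares were 60.5% and 19.5%. Over all genes, the medians were 57.1% and 13.5% at 3 h and 65.2% and 9.92% at 6 h. The change of the Ang II x Control difference from 3 h to 6 h was 0.33 (SE 0.18, limma adjusted p = 0.697).

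**Figure D2:**
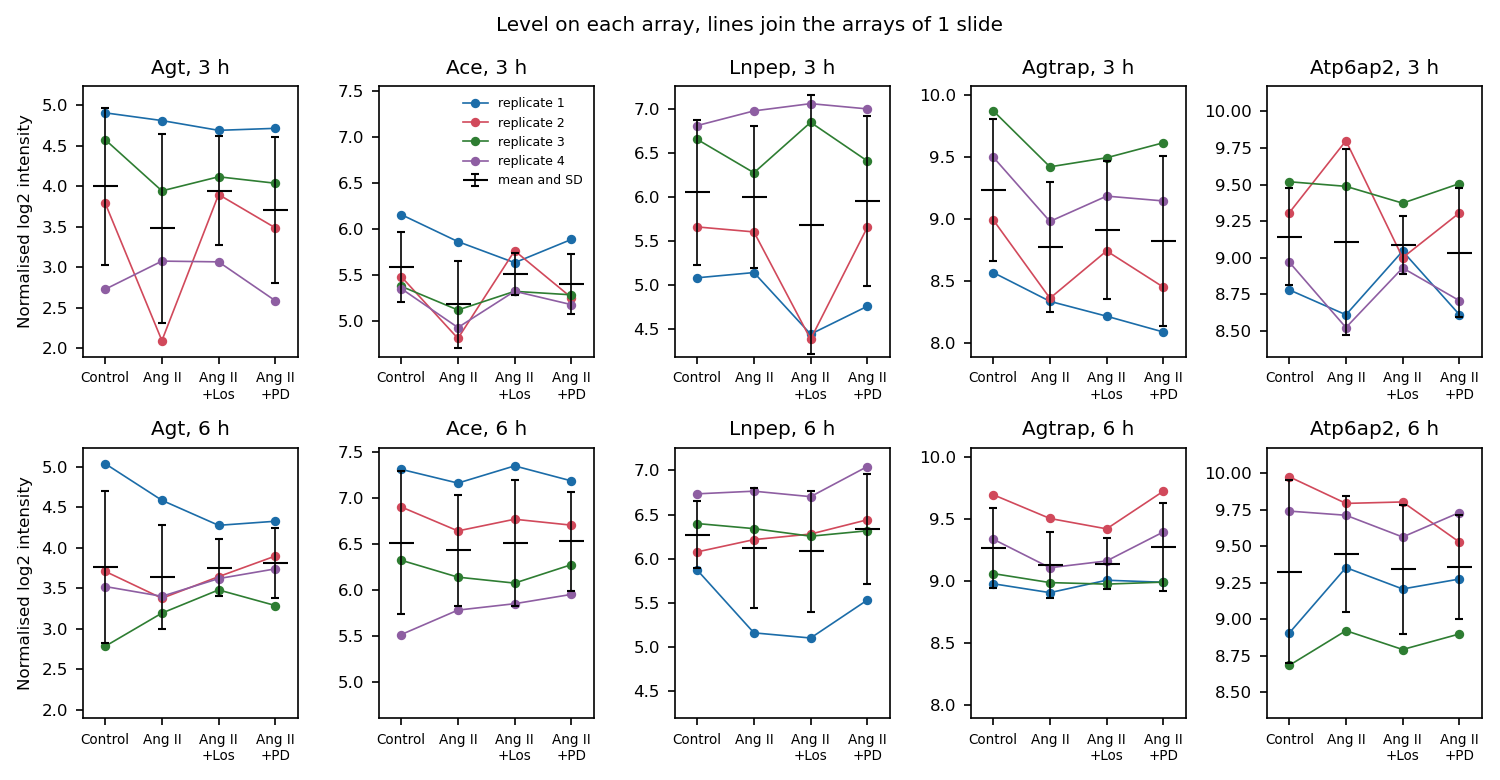
Normalised log2 intensity of Agt, Ace (second probe), Lnpep, Agtrap and Atp6ap2 on each array by group, 3 h above and 6 h below, with lines joining the 4 arrays of a slide and black marks for the mean and SD of a group (n = 4). Many lines stay apart by slide, while some cross, as in Ace and Atp6ap2 at 3 h. In Agtrap at 3 h every line steps down from Control to Ang II.

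Lnpep encodes the insulin-regulated aminopeptidase, a membrane enzyme that binds angiotensin IV and cuts oxytocin and vasopressin (probe at chr1:56106644-56106703, minus strand). It passed the detection criterion on all 32 arrays. Its 3 h levels in replicates 1 to 4 were 5.08, 5.66, 6.65 and 6.81 in Control, 5.14, 5.61, 6.28 and 6.98 in Ang II, 4.45, 4.39, 6.85 and 7.06 in Ang II+Los, and 4.76, 5.66, 6.41 and 7.00 in Ang II+PD123319. Scan 1 was below scan 2 in every group, and the gap was the widest in Ang II+Los. Slides accounted for 87.3% of its variation at 3 h and 88.2% at 6 h, and groups for 2.38% and 3.70%.

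Lnpep differed by an unadjusted p under 0.05 in 0 of the 12 comparisons. For Ang II x Control the difference was -0.05 (interval -0.60 to 0.49) at 3 h and -0.15 (interval -0.44 to 0.14) at 6 h. Against Ang II, the Losartan group at 3 h differed by -0.32 (SE 0.25, limma adjusted p = 0.539), an average of opposite values in the 2 scans. Scan 1 alone gave -0.96, past the unadjusted threshold on 2 slides, and scan 2 gave 0.33, which did not pass. Without replicate 3 the difference was -0.61 and passed it. The same 2 arrays, Ang II+Los replicates 1 and 2, also had the lowest 3 h values of Prcp, described below. At 6 h the difference from Ang II was -0.04 with Losartan (interval -0.33 to 0.26) and 0.21 with PD123319 (interval -0.08 to 0.51).

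Agtrap, which encodes a small membrane protein that binds the tail of the AT1 receptor and draws it into the cell, was lower in all 3 Ang II groups than in Control at 3 h. Its probe, which passed detection on all 32 arrays, lies at chr5:165154364-165154423 on the minus strand. Its first 30 bases are shown, since the 3 h differences that follow rest on this probe.
Agtrap: agaagacaagaagcccaagatgttttctcg
The log2 levels of replicates 1 to 4 were 8.57, 9.0, 9.87 and 9.5 in Control, 8.34, 8.36, 9.42 and 8.98 in Ang II, 8.22, 8.74, 9.5 and 9.19 in Ang II+Los, and 8.09, 8.45, 9.62 and 9.15 in Ang II+PD123319. On every slide Control was the highest of the 4 arrays, although the groups overlapped because the slides differed by up to 1.30 in their means.

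The Ang II x Control difference of Agtrap at 3 h was -0.46 (SE 0.10, interval -0.69 to -0.23, limma adjusted p = 0.322), which is 0.728 times the Control level, and the 4 slides gave -0.23, -0.63, -0.45 and -0.52. With Losartan, the difference from Control was -0.32 (SE 0.10, interval -0.55 to -0.10, limma adjusted p = 0.178), with slide values from -0.38 to -0.25. With PD123319 it was -0.41 (SE 0.10, interval -0.64 to -0.18, limma adjusted p = 0.461), with slide values from -0.54 to -0.26. All 3 passed the unadjusted threshold and none the adjusted one, and they share the same 4 Control arrays. Lower values on all 4 slides were found for 12.7% of all genes in Ang II, 9.56% with Losartan and 11.2% with PD123319, each against Control.

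Neither antagonist moved Agtrap away from its Ang II level at 3 h by an amount that passed the test. The difference from Ang II was 0.13 with Losartan (interval -0.09 to 0.36) and 0.05 with PD123319 (interval -0.18 to 0.28), and the antagonist groups differed by 0.08 (interval -0.14 to 0.31). The Ang II x Control difference of -0.46 has its own interval, -0.69 to -0.23, and shares the Ang II arrays with the differences of the antagonist groups from Ang II. How much of it each antagonist removed was not tested. Leaving out each replicate in turn gave -0.53 to -0.40 for Ang II x Control, past the unadjusted threshold each time. The Losartan group against Control no longer passed without replicate 3, at -0.31. By scan, Ang II x Control was -0.43 in scan 1, which did not pass on its 2 slides, and -0.48 in scan 2, which did. Without the slide as a block the same -0.46 did not pass.

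Before normalisation the processed intensities of Agtrap were 373, 599, 678 and 538 in the Control arrays and 437, 712, 575 and 486 in the Ang II arrays, so 2 of the 4 Ang II arrays were the brighter ones. The 3 h Ang II arrays were brighter as a whole on every slide, with 75th percentiles of log2 intensity of 9.46, 10.23, 8.78 and 9.04 against 9.02, 9.25, 8.60 and 8.65 in Control. The PD123319 arrays were also brighter than Control on every slide (9.47, 9.71, 8.66 and 8.70), and the Losartan arrays on 2 of 4 (10.03, 9.24, 8.28 and 8.92). The normalised Agtrap level was lower on all 4 slides in both. Its intensities before normalisation were 575, 468, 417 and 529 with Losartan, the first above Control, and 372, 547, 594 and 445 with PD123319. Scaling by the 75th percentile gave -0.48 and quantile normalisation -0.51 for Agtrap in Ang II x Control, and -0.51 and -0.42 for Ace, all past the unadjusted threshold. Before normalisation the Ace intensities were 80.1, 55.4, 33.2 and 30.9 in Control and 89.9, 60.3, 29.8 and 27.1 in Ang II. With Losartan they were 95.9, 44.8, 23.4 and 36.5. On the slide of replicate 2, Ace with Losartan was thus dimmer than in Ang II before normalisation and 0.95 higher after it. The part of array brightness in the Agtrap and Ace differences was not tested.

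At 6 h the Agtrap levels of replicates 1 to 4 were 8.98, 9.69, 9.06 and 9.33 in Control, 8.90, 9.5, 8.99 and 9.11 in Ang II, 9.0, 9.42, 8.97 and 9.16 in Ang II+Los, and 8.99, 9.72, 8.99 and 9.39 in Ang II+PD123319. Ang II was again below Control on all 4 slides, as were 14.0% of all genes, and the difference of -0.14 (SE 0.07, interval -0.29 to 0.00, limma adjusted p = 0.245) missed the unadjusted threshold. Ang II+PD123319 differed from Control by 0.01 (interval -0.14 to 0.15). It was above Ang II by 0.15 (SE 0.07, limma adjusted p = 0.762) on all 4 slides, as were 10.5% of all genes, and this passed the unadjusted threshold. Leaving out replicate 1, 2 or 4 ended that call, with differences from 0.10 to 0.17. Ang II+Los differed from Control by -0.13 (interval -0.27 to 0.02).

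Tested directly, the Agtrap difference from Control changed between the time intervals by 0.32 for Ang II (SE 0.12, limma adjusted p = 0.666), by 0.20 for Ang II+Los (limma adjusted p = 0.329) and by 0.42 for Ang II+PD123319 (SE 0.12, limma adjusted p = 0.562). The first and the last passed the unadjusted threshold, where 7.18% and 6.18% of 13615 genes did, and the Losartan change did not (20.0% of genes). In the comparisons between groups given Ang II, 0 of 4 genes changed by that threshold (5.05% of genes for Losartan against Ang II, 1.72% for PD123319 against Ang II and 12.9% between the antagonists). Ace, Lnpep and Atp6ap2 did not pass in any of the 6 comparisons. Without replicate 2 at both times, 5 changes of the 4 genes passed in place of 2.

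Atp6ap2, the (pro)renin receptor and also a subunit associated with the vacuolar proton pump, passed detection on all 32 arrays (probe at chrX:22264999-22265055, minus strand). Its 3 h levels in replicates 1 to 4 were 8.78, 9.31, 9.52 and 8.97 in Control and 8.61, 9.80, 9.49 and 8.52 in Ang II, with replicate 2 higher and replicate 4 lower under Ang II. It passed an unadjusted p of 0.05 in 0 of the 12 comparisons. The Ang II x Control difference was -0.04 (SE 0.17, interval -0.41 to 0.33) at 3 h and 0.12 (SE 0.11, interval -0.12 to 0.36) at 6 h. Of the 10 other differences, those at 3 h lay between -0.11 and 0.05 and those at 6 h between -0.10 and 0.03.

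**Figure D3:**
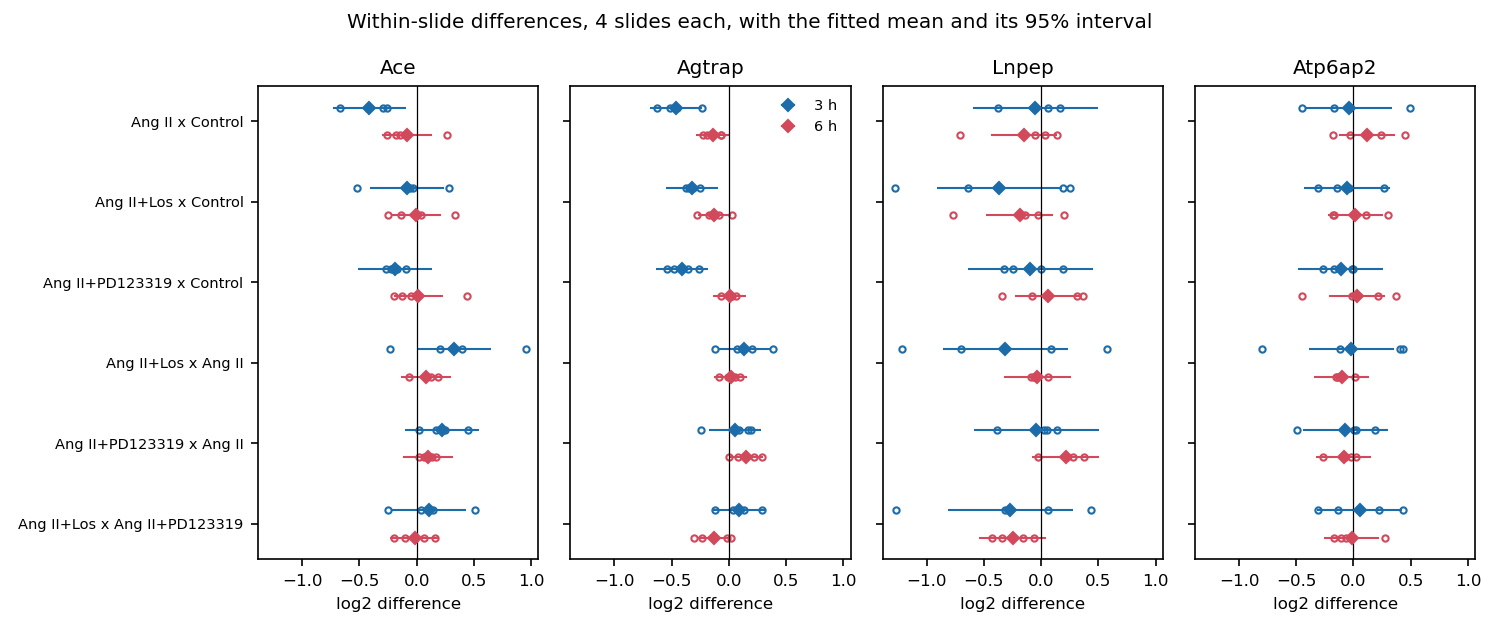
Log2 difference of Ace, Agtrap, Lnpep and Atp6ap2 in each of the 6 comparisons, 3 h in blue and 6 h in red: open circles are the 4 slides, diamonds the fitted mean with its 95% interval. The 3 h intervals of Agtrap against Control lie below 0 in all 3 comparisons, and Lnpep has slides far to both sides in Ang II+Los at 3 h.

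Counted by comparison, 4 of the 9 genes were tested at each time. At 3 h, Ang II x Control had 2 of 4 lower with an unadjusted p under 0.05 (Ace and Agtrap) and 0 higher, where 7.37% of 13628 genes were lower and 12.7% passed in either direction. When Losartan was set against Ang II alone 1 of 4 passed (Ace, higher), where 4.89% of genes were higher and 10.9% passed. Agtrap passed as lower against Control with Losartan (11.3% of genes lower, 21.7% in either direction) and with PD123319 (4.86% and 7.59%). The PD123319 group against Ang II had 0 of 4 (2.99% of genes), and the antagonist groups against each other 0 of 4 (14.6%).

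At 6 h, 1 of 4 passed for PD123319 against Ang II (Agtrap, higher), where 3.88% of 16441 genes were higher and 6.37% passed. In the other 6 h comparisons 0 of 4 passed. The background there was 21.5% for Ang II, 21.9% with Losartan and 22.9% with PD123319, each against Control. It was 2.00% for Losartan against Ang II and 8.07% between the antagonists. With a Benjamini-Hochberg adjusted p under 0.05, limma called 0 of 4 in each of the 12 comparisons, where the share of all genes was 0.0% in 10 of them, 1.36% for Losartan and 1.38% for PD123319 against Control at 6 h.

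Against Control, the median difference of the 4 tested genes at 3 h was -0.23 in Ang II, -0.20 with Losartan and -0.15 with PD123319, and at 6 h it was -0.11, -0.06 and 0.02. The medians over all genes lay between -0.01 and 0.01 in these comparisons. Since 4 genes are few, each median is only the midpoint of the middle genes, and which genes these were differed between comparisons.

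Other genes of the pathway were followed in a list of 22 names, covering angiotensin-cleaving peptidases, kinin genes and receptor partners. All 22 were on the array, 10 passed detection on all 32 arrays and 3 on 0 arrays. The 3 at background were Mme, which encodes neprilysin, and the proteases Cma1 and Klk1.

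Of the 14 list genes tested, 10 passed an unadjusted p of 0.05 in at least 1 comparison. The share of all genes that did so in at least 1 of the 12 comparisons is not given, so this count has no background beside it. At 3 h, 9 of 72 tests passed, 4 higher and 5 lower, with 0 past the adjusted threshold, and at 6 h 17 of 84 passed, 7 higher and 10 lower, with 1 past it. Over all genes, the share past the unadjusted threshold ran from 2.99% to 21.7% across the 6 comparisons at 3 h and from 2.00% to 22.9% at 6 h. For Ang II x Control these were 1 of 12 at 3 h (background 12.7%) and 4 of 14 at 6 h (background 21.5%).

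Prcp, a lysosomal carboxypeptidase that removes the last residue of Ang II, gave the one adjusted call. At 6 h it was higher in Ang II+Los than in Control by 0.36 (SE 0.07, limma adjusted p = 0.0394, background 1.36% of genes) on all 4 slides. It was also higher in Ang II by 0.32 (SE 0.07, limma adjusted p = 0.0774) and with PD123319 by 0.28 (SE 0.07, limma adjusted p = 0.0681), on all 4 slides each. The share of all genes higher on all 4 slides is not given for these comparisons. The adjusted p for Losartan lay between 0.0659 and 0.323 when a replicate was left out, so that the adjusted call was lost each time, while the difference stayed between 0.33 and 0.42. With normexp background the differences were smaller, at 0.13 with Losartan (limma adjusted p = 0.236), 0.13 in Ang II and 0.07 with PD123319, and the last no longer passed the unadjusted threshold. Over all alternatives except those leaving out a replicate, the adjusted p for Losartan ran from 0.0297 to 0.999. At 3 h, Prcp passed the unadjusted threshold only where Ang II+Los was compared, with -1.39 against Control (SE 0.60, limma adjusted p = 0.217). The slides of replicates 1 and 2 gave -1.87 and -3.98, and those of replicates 3 and 4 gave 0.31 and -0.02. In scan 2 alone the difference was 0.14 and with normexp -0.35, and neither passed. Prcp was well above background on 15 of the 16 arrays at 3 h and on all 16 at 6 h.

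Rnpep, Mtus1 and Prep each passed the unadjusted threshold in all 3 groups given Ang II at one of the times. Rnpep, which encodes aminopeptidase B, was higher than in Control at 3 h by 0.39 in Ang II, 0.34 with Losartan and 0.35 with PD123319, on all 4 slides each, and by 0.20 in Ang II at 6 h, on 3 of 4. The limma adjusted p of these 4 lay between 0.217 and 0.643, and with normexp the differences of 0.23, 0.23, 0.21 and 0.12 did not pass the unadjusted threshold. Mtus1, whose product ATIP binds the AT2 receptor tail, was higher than in Control at 6 h by 0.22 in Ang II, 0.15 with Losartan and 0.23 with PD123319, on all 4 slides each (limma adjusted p from 0.0888 to 0.202). The 2 Mtus1 probes disagreed: 1 gave 0.10, 0.02 and 0.14, which did not pass, and the other 0.34, 0.29 and 0.31, which did. With the deposited values Mtus1 gave 0.17, 0.09 and -0.07, so that the last turned its sign, and none passed. Prep, a prolyl peptidase of the cytosol, differed at 6 h in the same groups by -0.22, -0.27 and -0.24, lower on 3 of 4 slides each (limma adjusted p from 0.0976 to 0.166). These comparisons share the Control arrays, and the share of all genes higher on all 4 slides is not given for them. At 3 h, 12.7% of all genes were lower than Control on all 4 slides in Ang II, 9.56% with Losartan and 11.2% with PD123319. These shares are for the direction opposite to that of Rnpep, and are no background for the 6 h results.

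The other list genes past the unadjusted threshold were all found in comparisons with Ang II+Los. Igf2r, the receptor that sorts lysosomal enzymes, was lower at 6 h than in Control (difference -0.27), Ang II (-0.19) and Ang II+PD123319 (-0.23). The lysosomal proteases Ctsa and Ctsd differed from Ang II+PD123319 at 6 h by -0.18 and -0.22, and Ctsa also from Control by -0.20. Bdkrb2, the bradykinin B2 receptor, differed from Ang II+PD123319 by -0.63, with -2.03 from replicate 1 alone, and without that replicate the difference was -0.16, and with normexp -0.15. At 3 h Arap1, a receptor-trafficking adaptor, differed from Ang II by -0.29 and from Control by -0.33, and Nln, the peptidase neurolysin, from Ang II+PD123319 by 0.24. The limma adjusted p of all these lay between 0.0856 and 1. Of the 26 list results past the unadjusted threshold, 5 kept it whichever replicate was left out. These were Prcp at 6 h in the 3 groups against Control, Mtus1 in Ang II and Igf2r with Losartan against Control. The share of all genes that kept a call in this way is not given, so this count has no background beside it.

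**Figure D4:**
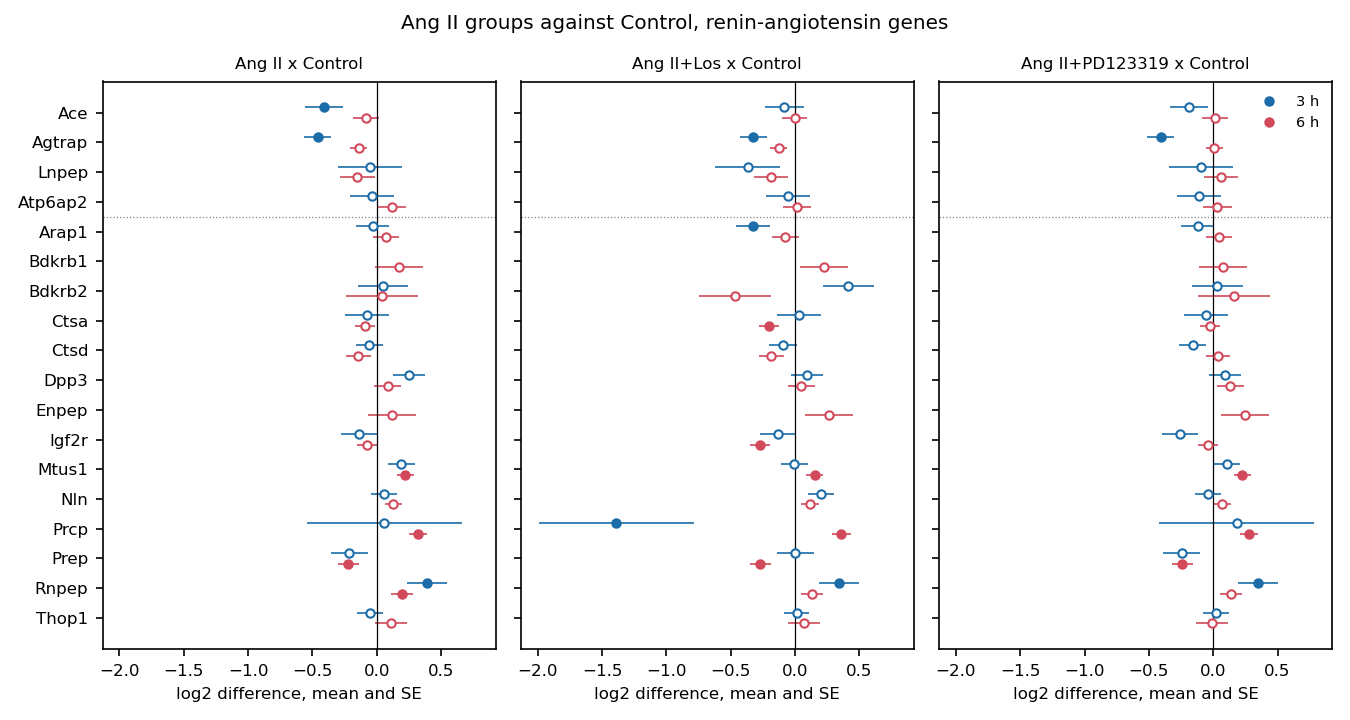
Log2 difference from Control, with its SE, of the 4 tested genes (above the dotted line) and the 14 tested list genes in Ang II, Ang II+Los and Ang II+PD123319, 3 h in blue and 6 h in red, filled where the unadjusted limma p was under 0.05. Agtrap is filled at 3 h in all 3 panels, Prcp, Mtus1 and Prep at 6 h in all 3, and Bdkrb1 and Enpep were tested at 6 h alone.

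The genes most like each tested member were found by the correlation of slide-centred levels over the 16 arrays of a time, taking the lower of the 3 h and 6 h values, among 7714 genes well above background on all arrays. For Agtrap they were Gtpbp6 (lower Pearson r = 0.813), Csf2ra (0.798) and Syt5 (0.785). For Atp6ap2 they were Tmem68 (0.910), Sypl1 (0.878) and Txndc1 (0.873). For Lnpep they were Mef2c (0.777), Slc24a5 (0.767) and Ptpre (0.766), and for Ace Tbl3 (0.724), Psx1 (0.699) and Abpa (0.690). The points share slides and array positions, and these are the highest of many values.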

How the data were processed

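The members and lists were chosen with earlier results of these data known. Per the file headers, Agilent Feature Extraction 9.5.3.1 measured a spot intensity and subtracted the background, with probes placed on rn4, and its limit for well above background was 2.6 SDs at 3 h and 13 at 6 h. The log2 values that the authors deposited match the log2 processed intensity for 100% of the 561803 that could be compared (tolerance 1e-06), so they carry no scaling between arrays, and 38.2% of the table is blank. Scanner intensities were used here. Outlier spots were left out, and dim 3 h spots took the error of their signal, as the 6 h software setting had done. Log2 intensities were normalised by cyclic loess (3 iterations, span 0.7) within each time, so levels are not compared between times. Probes well above background on all 4 arrays of a group, with at most 2 gaps, were kept and averaged per gene (13628 genes at 3 h, 16441 at 6 h).

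Comparisons used limma 3.58.1 in R 4.3.3 on the 16 arrays of a time, two-sided, with the replicate number as a block, Benjamini-Hochberg adjustment over all genes, and the study's unadjusted p of 0.05. The number is the slide: deviations of same-slide arrays correlated by 0.147 to 0.916 at 3 h and by 0.549 to 0.825 at 6 h. The change between times is an interaction over 32 arrays. The number of arrays limits the precision. The fit was tested on data simulated for Ang II x Control, with independent noise added after normalisation, so that step was not tested. Of 100 genes given a change of 0.5 at 3 h, 76% passed the unadjusted threshold and 25% the adjusted one. All 9 genes are named, other pathway genes if past that p in 1 comparison or never well above background, and 3 genes most alike per member. Python 3.11.15, numpy 2.4.6, pandas 2.3.3 and matplotlib 3.10.9 made the tables and figures. Alternatives were other normalisations, backgrounds and filters, single probes, the 8 arrays of a comparison, each scan and the deposited values. A paired t-test and leaving out each replicate were also used. The series record names paired t-tests for the arrays, while the paper's methods name t-tests. Some genes of the pathway list are not reported here.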

Additional observations from a re-analysis of the deposited data

Results flagged for a closer look

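Of 40 groups of 4 arrays examined (5 probes, 8 groups), 3 held an array whose gap to its neighbour took up more of the range of the group than Dixon's 95% limit, which chance passes in about 1 of 20 groups. In each the array was the highest and was replicate 1. Ace was at 6.16 in Control at 3 h, with the other replicates between 5.35 and 5.48, and at 5.88 in Ang II+PD123319 at 3 h, with the others between 5.18 and 5.28. Agt was at 4.58 in Ang II at 6 h, with the others between 3.19 and 3.4. No change of a comparison between 3 h and 6 h passed the adjusted threshold for these genes, and none had opposite directions on every slide.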

How the results depend on the processing

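The 48 values of the 4 tested genes were recomputed 822 times in all under the alternatives. In 774 the call stayed on its side of an unadjusted p of 0.05, 33 fell short of it and 15 newly passed. No called value changed direction, and 72 values that passed in neither setting changed sign. The count with an adjusted p under 0.05 was 0 in every comparison and alternative run. The counts below are of the 4 genes past the unadjusted threshold, and the cause of their moves was not tested except where fewer samples or genes entered. The share of all genes past it moved with the setting too. In Ang II x Control at 3 h it was 12.7%, but 2.63% without the replicate block, 4.84% in scan 1 alone and 12.5% with normexp. For Losartan against Ang II at 3 h it was 10.9%, but 2.85% with the paired t-test. Between the antagonists at 3 h it was 14.6%, but 24.8% in scan 1 alone. Other shares are not given.

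Without the replicate block, the counts at 3 h fell from 2 to 0 in Ang II x Control, and from 1 to 0 for Losartan against Ang II, Losartan against Control and PD123319 against Control, as did the 6 h count of PD123319 against Ang II, and the changes between times fell from 2 to 0. At 3 h, the Ang II x Control count was 1 with normexp, with no filter (all 9 genes entered) and with the deposited values (2 genes entered), and 0 in scan 1 alone. For Losartan against Ang II at 3 h it was 0 with the paired t-test, 75th percentile scaling, normexp, no filter, the weaker detection criterion, the 8 arrays alone and the deposited values. For PD123319 against Ang II at 6 h it was 0 with the first 5 of these and in scan 3 alone. Counts rose with the paired t-test from 1 to 2 for PD123319 against Control at 3 h, and from 0 to 1 in these cases: Losartan against PD123319 at 3 h in scan 1 alone, Ang II x Control at 6 h with the paired t-test, normexp and scan 3 alone, Losartan against Control at 6 h with normexp, and Losartan against PD123319 at 6 h with 75th percentile scaling and the 8 arrays alone. Leaving out 1 replicate gave, at 3 h, 1 to 2 in the Ang II x Control comparison and 1 with PD123319 against Control, 1 to 5 for the changes between times (5 without replicate 2, 1 without replicate 4) and 0 to 1 for Losartan against Ang II and against Control at 3 h, and at 6 h for Ang II and Losartan against Control, PD123319 against Ang II and Losartan against PD123319. By the weaker detection criterion 5 probes in place of 4 passed on all 32 arrays. For the 26 results of other pathway genes past the unadjusted threshold, 21 no longer passed without the replicate block, 20 with the paired t-test, 15 with the 8 arrays alone, 8 with normexp, 5 each with 75th percentile scaling, quantile normalisation, no filter and the deposited values (19 had a value), and 3 when each probe was fitted alone. Signs turned for 1 with the deposited values and for 3 of the 9 that scan 2 alone could give. Dim signal limited what could be measured for Agt, the first Ace probe and the receptors.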
